A study of Oryza sativa with 4 samples.

Results

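Expansins are small secreted proteins that loosen the plant cell wall without cutting its polymers, letting cellulose fibres slip apart so that a cell under turgor can extend. The alpha-expansins act mainly where cellulose meets xyloglucan, while the beta-expansins, a group enlarged in grasses, act on the xylan-rich walls typical of rice and its relatives. In leaves, both are known chiefly from the growing zone, and a flag leaf blade at its widest part has largely finished extending. The 10 loci described here were chosen by identifier as 6 alpha-expansins (EXPA1, EXPA2, EXPA4, EXPA5, EXPA7 and EXPA10) and 4 beta-expansins (EXPB6, EXPB2, EXPB3 and EXPB4), out of 35667 rows of gene loci. The choice was made with earlier results of these data known.

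RNA came from leaf blades of the rice mutant d1, carrying allele d1-1 of RGA1, and of the wild type TC65 (WT), with 2 libraries per genotype. RGA1 encodes the alpha subunit of the heterotrimeric G protein, and its loss gives dwarf plants. All plants stood singly in pots in 1 greenhouse regime, with 16 h of light. Their age is labelled both as 2 months and as 100 days. Whether d1 has the TC65 background, whether the replicates were separate plants and whether blades were pooled is not stated in the labels. The deposited p-values thus rest on 2 libraries per genotype, whose spread may be only technical. How the authors' test modelled that spread is not stated. The table gives 1 FPKM value per genotype (fragments relative to transcript length and sequencing depth), so no value per library, SD or interval can be given. The labels put sequencing at about 40000000 reads per library, but the reads behind an FPKM value are unknown.

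The 10 names are synonyms of 10 genes in the RefSeq annotation of rice (assembly ASM3414082v1), each on the chromosome that the identifier shows and in the same order along it. The identifiers themselves were not matched there, so the pairing of name and locus was checked only that far. RefSeq lists 29 alpha-expansins, 15 beta-expansins and 5 expansin-like genes under such synonyms, 49 in all. The locus entered as RGA1 was read at 17.3 FPKM in d1 and 20.7 FPKM in WT, without passing the test (q = 0.296 in the authors' deposited table), and this level over the whole locus does not show the lesion. The blades carried leaf transcripts at high level: the 5 tested loci entered as rubisco small subunits and light-harvesting proteins lay between 3301 and 35243 FPKM in d1 and between 1757 and 21644 FPKM in WT. All 5 values were higher in d1, and 2 of the 5 were called higher, against 7.24% of all tested genes. Their log2 ratios ran from 0.63 to 1.35, with a median of 0.91 (summed level 92617 FPKM in d1 and 49666 FPKM in WT). The part that this difference may play in the expansin values was not tested. The remaining listed leaf locus, entered as rubisco activase, held too much data for the test and is listed at 0 in both genotypes. Of 6 loci entered as markers of dividing or meristem cells, none was called among the 3 tested (0 also at an unadjusted Cuffdiff p under 0.05). The summed level of all 6 was 15.5 FPKM in d1 and 15.6 FPKM in WT, but single loci went opposite ways. The 3 tested loci were read at 8.85, 6.25 and 0.377 FPKM in d1, against 6.97, 8.10 and 0.282 FPKM in WT. Those without a test were each lower in d1, at no more than 0.0312 FPKM in d1 and 0.122 FPKM in WT. A root marker locus was listed at 0 in both genotypes, and 4 flower and anther loci summed to 0.994 FPKM in d1 and 0.593 FPKM in WT. In bulk leaf tissue, fewer cells of a type and less RNA per cell cannot be told apart.

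Of the 10 expansins, 8 had been tested. In d1, 4 of them were called higher and 1 lower, and 3 did not pass. A call is a q-value under 0.05 in the authors' deposited table, which called 7.24% of all 23672 tested genes higher in d1 and 12.1% lower. With the Benjamini-Hochberg adjustment recomputed over all tested genes from the deposited p-values, which called 5.09% of them higher and 9.17% lower, the same 4 and 1 expansins were called. The deposited q-values are more lenient than this adjustment. At the smallest Cuffdiff p, 5e-05, the deposited q was 0.000186 and the recomputed value 0.000882. The 4 risers were EXPA2, EXPA4, EXPB3 and EXPB4, and they rose between 4.55-fold and 8.43-fold. The faller was EXPA10. A rise of at least 4-fold with a call was met at 194 tested genes, or 0.82% of them, of which 32 were listed at 0 in WT. The median log2 ratio of d1 over WT was 1.84 over the 8 tested expansins, and also over all 10, against -0.02 over all tested genes. Because the expansins were chosen with earlier results of these data known, these counts and medians only describe the 10 loci. They are no test of expansins as a group. The 2 loci without a test, EXPA5 and EXPA7, were the lowest of the 10 in both genotypes, so the tested loci are those with more signal.

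**Figure D1:**
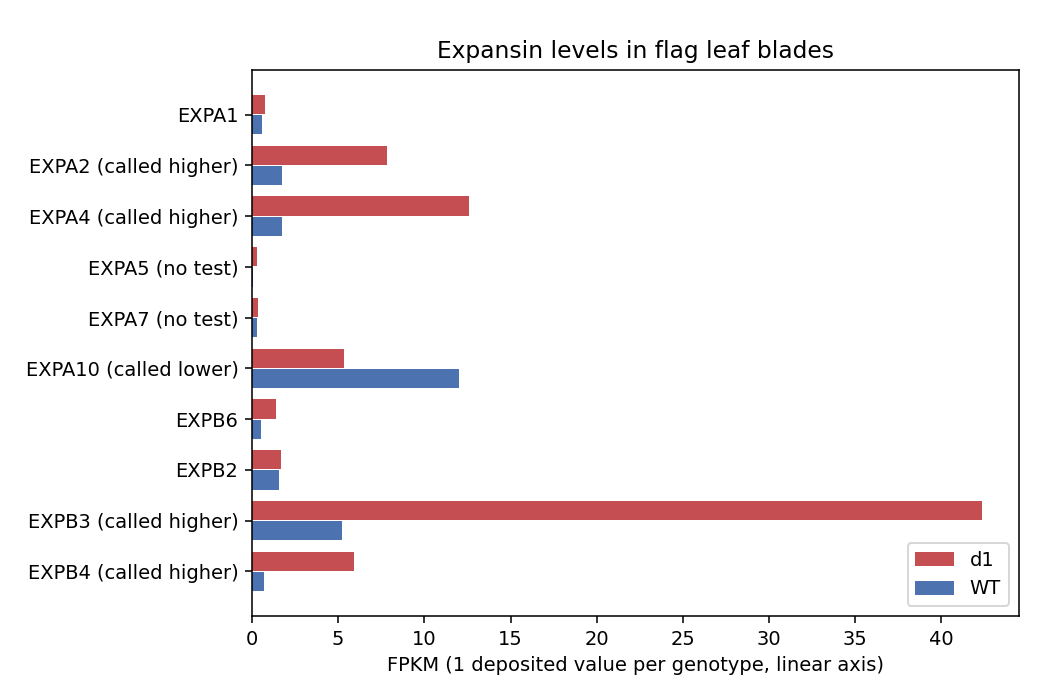
Level of each expansin in FPKM (horizontal axis, linear) in d1 and WT flag leaf blades, 1 deposited value per genotype, so no error bar can be drawn. EXPB3 reached 42.4 FPKM in d1 and 5.24 FPKM in WT, and EXPA10 stood at 5.35 FPKM in d1 and 12.0 FPKM in WT.

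Among the alpha-expansins, EXPA4 had the largest called rise. EXPA4 (OS05G0477600, chromosome 5 by its identifier) is known from rice, where raising or lowering its expression changed plant height and cell length. Its level was 12.6 FPKM in d1 and 1.71 FPKM in WT, a log2 ratio of 2.87 (p = 5e-05, q = 0.000186 in the authors' deposited table). EXPA2 (OS01G0823100, chromosome 1), one of the first expansins cloned from deepwater rice, was at 7.84 FPKM in d1 and 1.72 FPKM in WT. Its log2 ratio was 2.19, with the same p and q as EXPA4 in the authors' deposited table. The 2 genes stood at nearly the same level in WT and differed in d1. The difference between their ratios was not tested.

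EXPA10 moved the other way. EXPA10 (OS04G0583500, chromosome 4) is known from rice roots, where aluminium induces it and it contributes to root cell elongation. In leaf blades it was read at 5.35 FPKM in d1 and 12.0 FPKM in WT, which is 2.24-fold lower in d1 (log2 ratio -1.16, p = 0.00015, q = 0.000526 in the authors' deposited table). It was the highest of the 10 expansins in WT and the fifth in d1. Of 23672 tested genes, 2785 were called lower and above 0 in d1. Among these, 1164 had a log2 ratio at least as low, EXPA10 included.

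The remaining alpha-expansins were near the floor of the table. EXPA1 (OS04G0228400, chromosome 4), another of the early deepwater rice clones, was read at 0.751 FPKM in d1 and 0.555 FPKM in WT and did not pass (q = 0.616 in the authors' deposited table). EXPA5 (OS02G0744200, chromosome 2) stood at 0.296 FPKM in d1 and 0.0440 FPKM in WT, and EXPA7 (OS03G0822000, chromosome 3) at 0.349 FPKM in d1 and 0.261 FPKM in WT, neither with a test. Of the tested genes in d1, 96.8% lay above EXPA5 and 96.1% above EXPA7. The deposited ratio of EXPA5, 6.74-fold, is thus a ratio of very low values.

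The 4 beta-expansins follow one another on chromosome 10, and RefSeq annotates no other gene between the first and the last of them. Transcripts of several beta-expansins, EXPB3, EXPB4 and EXPB6 among them, are known to accumulate in the elongating internodes of deepwater rice. EXPB3 (OS10G0555900) was read at 42.4 FPKM in d1 and 5.24 FPKM in WT, a log2 ratio of 3.01. EXPB4 (OS10G0556100) was read at 5.90 FPKM in d1 and 0.701 FPKM in WT, a log2 ratio of 3.08. Both had p = 5e-05 and q = 0.000186 in the authors' deposited table, where 1342 tested rows share this smallest p. With 1 FPKM added to both genotypes, the log2 ratio was 2.80 for EXPB3 and 2.02 for EXPB4, since EXPB4 was low in WT. The difference between their ratios was not tested.

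The other pair of the run did not pass. EXPB6 (OS10G0555600) was read at 1.40 FPKM in d1 and 0.495 FPKM in WT, a log2 ratio of 1.50 that did not pass (p = 0.0269, q = 0.0594 in the authors' deposited table). The recomputed Benjamini-Hochberg value of EXPB6 was 0.132, and its log2 ratio was 0.68 with 1 FPKM added to both genotypes. EXPB2 (OS10G0555700), which is known to affect root and root hair growth in rice, was read at 1.70 FPKM in d1 and 1.56 FPKM in WT. Its log2 ratio of 0.13 (q = 0.849 in the authors' deposited table) becomes -0.14 if the FPKM sums of both genotypes are set equal. Whether the ratios within the run differ from one another was not tested. Near-identical copies can share reads, and how the authors' counting split such reads is not given in the sources used here.

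**Figure D2:**
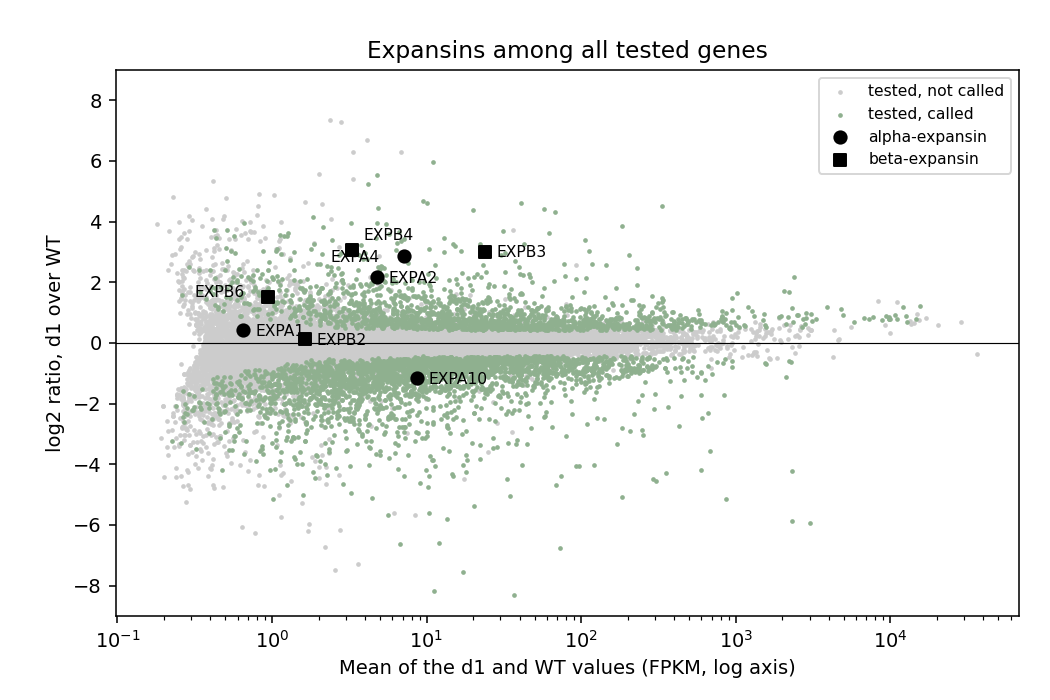
Log2 ratio of d1 over WT (vertical axis) against the mean of the d1 and WT values in FPKM (horizontal axis, log scale) for every tested gene above 0 in both genotypes, with called genes in green. EXPA2, EXPA4, EXPB3 and EXPB4 lie between 2.19 and 3.08, and EXPA10 at -1.16.

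The rank of the expansins by level differed between the genotypes. FPKM is scaled by length, so levels of different genes were set side by side. Reads shared with near-identical copies or neighbouring loci could alter the ranks, which was not tested. In d1 the order ran EXPB3, EXPA4, EXPA2, EXPB4, EXPA10, EXPB2, EXPB6, EXPA1, EXPA7, EXPA5. In WT it ran EXPA10, EXPB3, EXPA2, EXPA4, EXPB2, EXPB4, EXPA1, EXPB6, EXPA7, EXPA5. With 1 value per genotype, no neighbours in either order can be shown to differ beyond replicate spread.

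EXPB3 made up 53.9% of the summed FPKM of these 10 expansins in d1 and 21.6% in WT. EXPA10 made up 6.82% in d1 and 49.4% in WT. The 4 beta-expansins together summed to 51.4 FPKM in d1 and 7.99 FPKM in WT. The 6 alpha-expansins summed to 27.2 FPKM in d1 and 16.3 FPKM in WT. The alpha share of the sum was thus 34.6% in d1 and 67.1% in WT. Over all 10 the sums were 78.5 FPKM in d1 and 24.3 FPKM in WT, a 3.23-fold difference, which is 1.90-fold without EXPB3. None of these sums has a test. They cover 10 chosen loci of the 49 genes that RefSeq lists, so they are not the expansin total of the blade. The 13 loci entered as other expansins or expansin-like genes summed to 151 FPKM in d1 and 93.8 FPKM in WT. The highest of these 13 alone was read at 140 FPKM in d1 and 84.5 FPKM in WT.

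Set among all tested genes, EXPB3 moved furthest up the range of levels. In d1, 14.2% of tested genes stood above it, and in WT 58.9% did. For EXPB4 these shares were 54.8% in d1 and 91.1% in WT, for EXPA4 37.7% in d1 and 79.1% in WT, and for EXPA2 48.9% in d1 and 79.0% in WT. EXPA10 went down the range, with 56.9% of tested genes above it in d1 and 39.7% in WT. Of the 1681 genes called higher and above 0 in WT, 56 had a log2 ratio at least as high as EXPB3, EXPB3 included, and 12 of these were also at least as abundant in d1.

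On either side of the beta-expansin run the log2 ratios of the tested loci were below 0.5. Of the 10 loci before EXPB6 in identifier order, 8 were tested and none was called (0 also at an unadjusted Cuffdiff p under 0.05), with log2 ratios from -0.16 to 0.38. Of the 10 loci after EXPB4, 5 were tested and 1 was called higher, the first one, at 153 FPKM in d1 and 112 FPKM in WT, a call lost with the recomputed adjustment. The log2 ratios of these 5 loci lay between 0.13 and 0.44. Inside the run lie 2 further loci of the deposited table. The one between EXPB3 and EXPB4 (OS10G0556000) was read at 56.8 FPKM in d1 and 7.28 FPKM in WT, a log2 ratio of 2.96 (q = 0.00276 in the authors' deposited table). The one between EXPB6 and EXPB2 was read at 3.14 FPKM in d1 and 1.26 FPKM in WT, a log2 ratio of 1.32 that did not pass (q = 0.164 in the authors' deposited table).

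**Figure D3:**
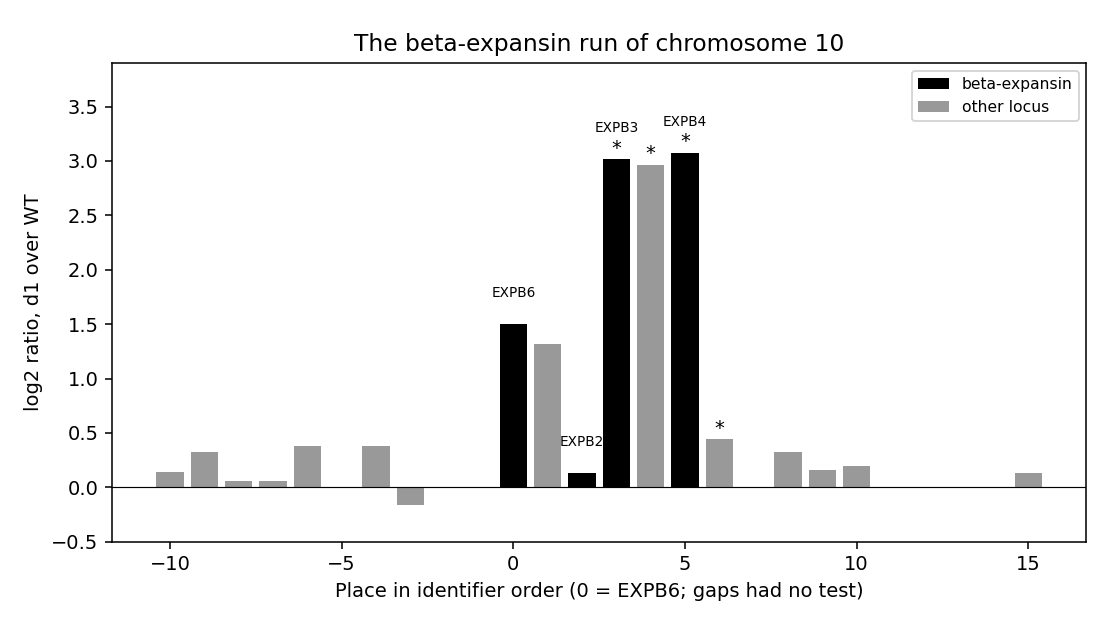
Log2 ratio of d1 over WT (vertical axis) of tested loci in identifier order (horizontal axis, place 0 being EXPB6), with the 4 beta-expansins in black, other loci in grey and stars on loci called higher. EXPB3, EXPB4 and the locus between them reach 2.96 to 3.08, whereas the tested loci before and after the run lie between -0.16 and 0.44.

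Next to both risers outside chromosome 10 lay a locus that was called higher as well. The locus that follows EXPA4 was read at 18.4 FPKM in d1 and 2.15 FPKM in WT, a log2 ratio of 3.10 (q = 0.000186 in the authors' deposited table). The locus that follows EXPA2 was read at 8.47 FPKM in d1 and 1.56 FPKM in WT, a log2 ratio of 2.44 (q = 0.0392 in the authors' deposited table), a call that is lost when the adjustment is recomputed from the deposited p-values. Of the loci that follow the 4 risers, those after EXPA2, EXPA4 and EXPB3 thus lay within 0.26 of the expansin on the log2 scale, whereas the one after EXPB4, at 0.44, differed from it by -2.63. Among all 116 genes called higher by at least 4-fold, above 0 in WT and followed by a tested locus, the next locus was also called higher in 33 (28.4%) and lay within 0.5 on the log2 scale in 20 (17.2%). These neighbours were looked at after the values were seen. The table gives no strand or coordinates, so whether these loci overlap the expansins or share reads with them was not tested.

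EXPA10 stood apart from its neighbours. The locus before it was called higher, at 14.7 FPKM in d1 and 7.31 FPKM in WT (q = 0.0331 in the authors' deposited table), and is not called with the recomputed adjustment. The locus after it was read at 1.11 FPKM in d1 and 0.743 FPKM in WT and did not pass. Neither neighbour shared the fall of EXPA10.

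**Figure D4:**
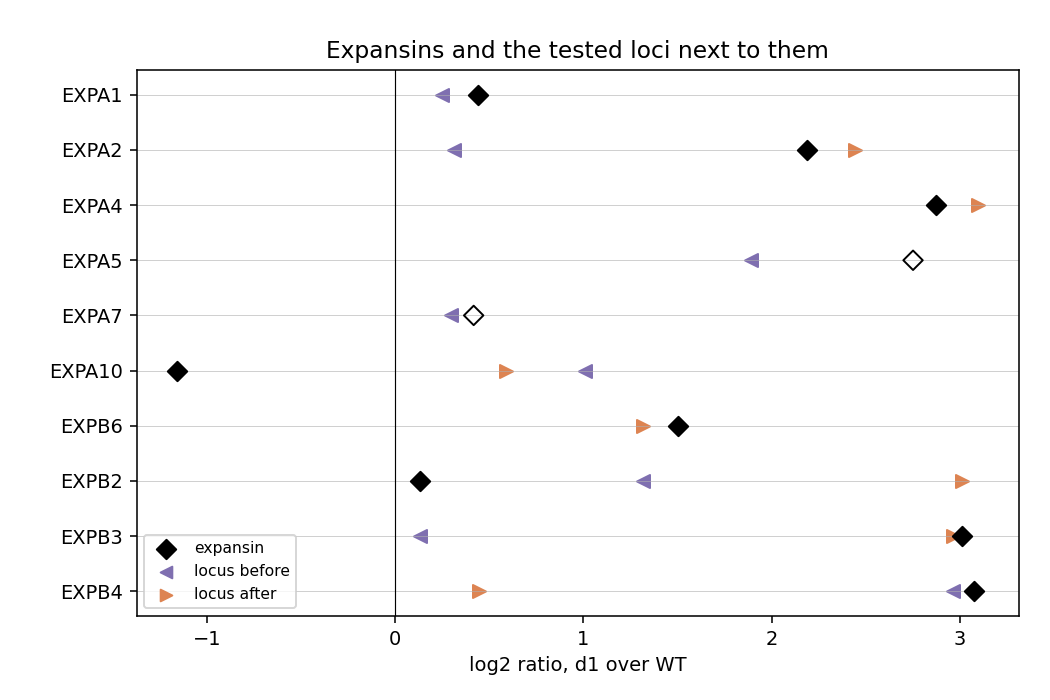
Log2 ratio of d1 over WT (horizontal axis) of each expansin (diamond, open where there was no test) and of the tested loci directly before and after it in identifier order (triangles). The locus after EXPA2, EXPA4 and EXPB3 lies within 0.26 of the expansin, the locus after EXPB4 lies at 0.44, and both neighbours of EXPA10 lie above 0.

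Other wall loci were set beside the expansins. They were entered by identifier from general knowledge, with earlier results of these data known, and no annotation used here pairs these identifiers with names. Over all tested genes, 7.24% were called higher in d1 and 12.1% lower. With the recomputed adjustment these shares were 5.09% and 9.17%. Of 13 loci entered as other expansins or expansin-like genes, 4 were tested. Among these 4, higher calls numbered 2 and lower calls 0 (1 at an unadjusted Cuffdiff p under 0.05, and 0 with the recomputed adjustment), and 5 of the 13 were listed at 0 in both genotypes. The more abundant riser, entered as an expansin-like gene, was read at 140 FPKM in d1 and 84.5 FPKM in WT (q = 0.00190 in the authors' deposited table), above each of the 10 expansins in both genotypes. The other was read at 4.34 FPKM in d1 and 1.39 FPKM in WT (q = 0.00494 in the authors' deposited table). A tested locus entered as a further beta-expansin had a higher log2 ratio, 4.01, without passing, at 1.20 FPKM in d1 and 0.0745 FPKM in WT (q = 0.331 in the authors' deposited table).

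Xyloglucan endotransglucosylases are enzymes that cut and rejoin the xyloglucan tethers on which alpha-expansins act. Of 3 loci entered as such, 2 were found, and both were called higher. The 2 loci were read at 19.3 and 27.3 FPKM in d1, against 0.785 and 14.6 FPKM in WT, with q = 0.000186 and 0.000359 in the authors' deposited table. Of 6 loci entered as primary wall cellulose synthases, 1 was called higher (3.14 FPKM in d1 and 1.79 FPKM in WT) and 5 did not pass, with a median log2 ratio of 0.31. The 3 loci entered as secondary wall cellulose synthases, which mark xylem and fibre cells, were all called lower, with a summed level of 4.17 FPKM in d1 and 13.0 FPKM in WT. Only 1 of these 3 calls is kept with the recomputed adjustment. The higher calls among the xyloglucan and primary wall loci are all kept with it. Of all tested genes, 7.24% were called higher and 12.1% lower. With that adjustment these shares were 5.09% and 9.17%. The part that a different make-up of cell types may play in the expansin values was not tested. The locus entered as an endoglucanase and the one entered as a COBRA-like protein did not pass.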

How the data were processed

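Per the submitters' processing notes, FastQC, Trimmomatic, TopHat2, Cufflinks and Cuffdiff were used with rice build IRGSP-1.0; versions, parameters, annotation and strand setting are not stated there. The authors deposited 1 gene table with an FPKM value per genotype over its 2 libraries, and with a signed test score, a p-value and a q-value per gene. Of 35667 rows, 23672 had been tested.

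Log2 ratios of d1 over WT were computed from the deposited FPKM with no pseudocount, in Python 3.11.15 with pandas 2.3.3. Calls use the deposited q-values under 0.05. The Benjamini-Hochberg adjustment was also recomputed over the tested rows. The planned fits per library were not possible. The recomputed adjustment and the call rule, not the deposited test, were checked on simulated data. All 10 expansins are named; other loci are given by list, with at most 2 identifiers. Lists and members were chosen with earlier results of these data known. Further alternatives were a q under 0.01, a 2-fold minimum, a minimum of 1 FPKM, added pseudocounts, equal FPKM sums, median centring and leaving out repeated identifiers.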

Additional observations from a re-analysis of the deposited data

Results flagged for a closer look

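Rows without a test enter no comparison, and 4 expansin rows of that kind had a higher value in d1 than in WT. They were EXPA5 at 0.296 FPKM in d1 and 0.0440 FPKM in WT, EXPA7 at 0.349 FPKM in d1 and 0.261 FPKM in WT, and 2 loci entered as other expansins. Of these, 1 was read at 0.433 FPKM in d1 and listed at 0 in WT, and the other was read at 0.0900 FPKM in d1 and 0.0234 FPKM in WT.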

How the results depend on the processing

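The count of 4 expansins called higher and 1 called lower was the same with a q under 0.01, a 2-fold minimum, the recomputed Benjamini-Hochberg adjustment, a minimum of 1 FPKM and without repeated identifiers. Over all tested genes, a q under 0.01 called 972 higher and 1860 lower, and a 2-fold minimum left 639 higher and 1486 lower. The median log2 ratio of the tested expansins, 1.84, was 1.57 with equal FPKM sums, 1.86 with median centring, 1.19 with 1 FPKM added, 1.73 with 0.1 FPKM added and 2.19 with a minimum of 1 FPKM. Of 40 recomputed ratios of single expansins, 39 kept their sign, and that of EXPB2 became -0.14 with equal FPKM sums, which shift every log2 ratio down by 0.27. EXPA2 then stood at a log2 ratio of 1.92, under 4-fold. No paired analysis was possible because both libraries of a genotype were merged into 1 deposited value; leaving out a library and the planned count tests were not run either. Without mapped reads, no counting error can be given for the low values.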
